A study of Mus musculus with 24 samples.

Results

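The CC chemokine genes Ccl2, Ccl6, Ccl7, Ccl8, Ccl9, Ccl11 and Ccl12 were followed in mouse left ventricle after TAC (transverse aortic constriction), in which the aorta is tied narrower and the ventricle has to pump against a higher pressure. They were found by gene symbol, 7 of the 24015 genes of the deposited count table, and all 7 passed the filter on low counts, as did 13816 genes in all. The groups were TAC hearts at days 2, 4, 7 and 21 after the operation and sham hearts, operated without constriction, at the same days, with 3 libraries in each of the 8 groups. The labels name neither strain nor age, and no other treatment or allele. They do not say whether the libraries of a group came from separate animals, so p-values measure the spread between these libraries, which may be technical.

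CC chemokines are small secreted proteins with adjacent cysteines near the N terminus, and they draw leukocytes into tissue through G protein-coupled receptors. Ccl2, Ccl7, Ccl12 and Ccl8 are the monocyte chemoattractant proteins, and in the heart the Ccl2-Ccr2 axis is known for bringing blood monocytes into injured or overloaded muscle. Ccl11 is an eotaxin, a ligand of Ccr3 that attracts eosinophils. Ccl6 and Ccl9 are ligands of Ccr1 made by myeloid cells of the mouse.

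Depth ran from 10.7 to 17.6 M counted reads per library (M, 1000000). Levels are counts per M reads after TMM scaling (CPM), and effects are log2 fold changes of TAC over sham ± SE from edgeR's quasi-likelihood test, called at an adjusted p under 0.05 over all 13816 genes. Cardiomyocyte markers, genes of heart muscle rather than of the left ventricle alone, summed to between 56600 and 116000 CPM in every library. TAC day 2 replicate 1 stood apart with 2105 CPM of Esr1, the estrogen receptor alpha gene, against 0.568 to 11.0 CPM in the other 23 libraries. The atrial gene Myl7 passed 30 CPM in sham day 2 replicates 2 and 3, TAC day 7 replicate 1 and sham day 21 replicate 2. In bulk tissue, more cells of a type and more RNA per cell cannot be told apart.

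All 7 genes lie on chromosome 11 in the RefSeq annotation of GRCm38.p6. Ccl2, Ccl7, Ccl11, Ccl12 and Ccl8 follow each other in that order, with the gene model Gm38913 between Ccl11 and Ccl12. Ccl9 and Ccl6 lie farther along, with E230016K23Rik between them. The neighbours Ccl11 and Ccl12 had effects of opposite sign at days 4 and 7. RefSeq promoter windows of GRCm38.p6 matched 4 of the 7 genes, Ccl12, Ccl8, Ccl9 and Ccl6, and the 250 bases before the start of each gene are printed here, since Ccl12 and Ccl8 passed the test at days 4 and 7 and Ccl9 and Ccl6 at days 2 and 4. The windows are chr11:82101595-82101844 on the plus strand for Ccl12, chr11:82114935-82115184 on the plus strand for Ccl8, chr11:83578637-83578886 on the minus strand for Ccl9 and chr11:83593088-83593337 on the minus strand for Ccl6. Each reads 5′ to 3′ toward the gene, and capitals mark matches to a searched motif on either strand.
Ccl12: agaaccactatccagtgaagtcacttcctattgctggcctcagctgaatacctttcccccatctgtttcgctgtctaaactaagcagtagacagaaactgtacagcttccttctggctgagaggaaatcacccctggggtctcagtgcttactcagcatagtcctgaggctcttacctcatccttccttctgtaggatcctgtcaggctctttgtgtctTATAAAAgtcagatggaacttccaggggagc
Ccl8: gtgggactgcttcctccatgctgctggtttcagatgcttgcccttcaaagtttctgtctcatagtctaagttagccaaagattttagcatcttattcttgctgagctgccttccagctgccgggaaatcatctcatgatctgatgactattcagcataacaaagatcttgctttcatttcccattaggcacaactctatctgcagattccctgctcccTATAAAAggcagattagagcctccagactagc
Ccl9: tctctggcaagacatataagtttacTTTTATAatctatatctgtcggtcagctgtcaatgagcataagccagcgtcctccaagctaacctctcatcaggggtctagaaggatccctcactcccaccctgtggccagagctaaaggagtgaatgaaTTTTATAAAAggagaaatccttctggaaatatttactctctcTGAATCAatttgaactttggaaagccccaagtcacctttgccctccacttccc
Ccl6: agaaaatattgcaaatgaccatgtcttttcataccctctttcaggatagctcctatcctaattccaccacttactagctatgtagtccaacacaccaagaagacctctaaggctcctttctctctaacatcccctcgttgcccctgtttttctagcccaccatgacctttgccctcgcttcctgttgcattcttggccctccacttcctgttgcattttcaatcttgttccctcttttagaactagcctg

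The motif letters searched on both strands were the kappaB core GGANTTTCC, the AP-1 site TGANTCA, the C/EBP site TTGCNNAA, the STAT palindrome TTCNNNGAA, the interferon response core GAAANNGAA and the TATA box TATAAAA, the last chosen after the sequences were seen. Of 32851 promoter windows of the same length, 1.07% held the kappaB core, 6.75% AP-1, 9.56% C/EBP, 7.02% the STAT palindrome, 7.13% the interferon core and 4.98% the TATA box. The neighbours Ccl12 and Ccl8 each held a TATA box close to the gene, from 31 to 25 bases before the start of Ccl12 and from 32 to 26 before that of Ccl8. Ccl9 held the AP-1 letters from 53 to 47 bases before its start. Its TATA letters stood farther away, from 225 to 219 bases before the start and in overlapping matches from 95 to 89 and from 92 to 86. No searched letters were in the window of Ccl6. Aligned end to end, Ccl12 and Ccl8 shared 57.8% of 268 aligned columns, and the other pairs shared 48.9% to 54.7%. A match describes letters and not a bound site.

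Averaged over the 4 days, all 7 genes differed between TAC and sham hearts, a comparison in which 45.7% of all tested genes were called. Ccl8 was higher by 1.90 ± 0.34, Ccl12 by 1.68 ± 0.27, Ccl7 by 1.50 ± 0.28 and Ccl2 by 1.44 ± 0.31 on the log2 scale. Ccl9 was higher by 0.82 ± 0.16 and Ccl6 by 0.71 ± 0.15. Ccl11 alone among them fell, with a log2 fold change of -1.22 ± 0.24. The adjusted p-values ran from 6.09e-05 for Ccl12 to 0.000784 for Ccl2, and all 7 stayed past the test in each of 34 alternative settings, among them leaving out each library in turn.

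At single days, different members passed the test. At day 2, Ccl2, Ccl7, Ccl6 and Ccl9 rose and none fell, where 3.73% of all genes rose and 0.854% fell. At day 4, Ccl7, Ccl12, Ccl8, Ccl6 and Ccl9 rose and Ccl11 fell, against 14.4% and 10.1% of all genes. At day 7, Ccl12 and Ccl8 rose and Ccl11 fell, against 13.1% and 10.0%. At day 21 no member passed edgeR's test, where 0.622% of all genes rose and 0.470% fell; at an unadjusted p under 0.05 Ccl8 and Ccl11 passed, and DESeq2 called none either. The median log2 fold change of the 7 genes was 1.33, 1.51, 1.37 and 0.67 at days 2, 4, 7 and 21, and that of all tested genes lay between -0.01 and 0.01.

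**Figure D1:**
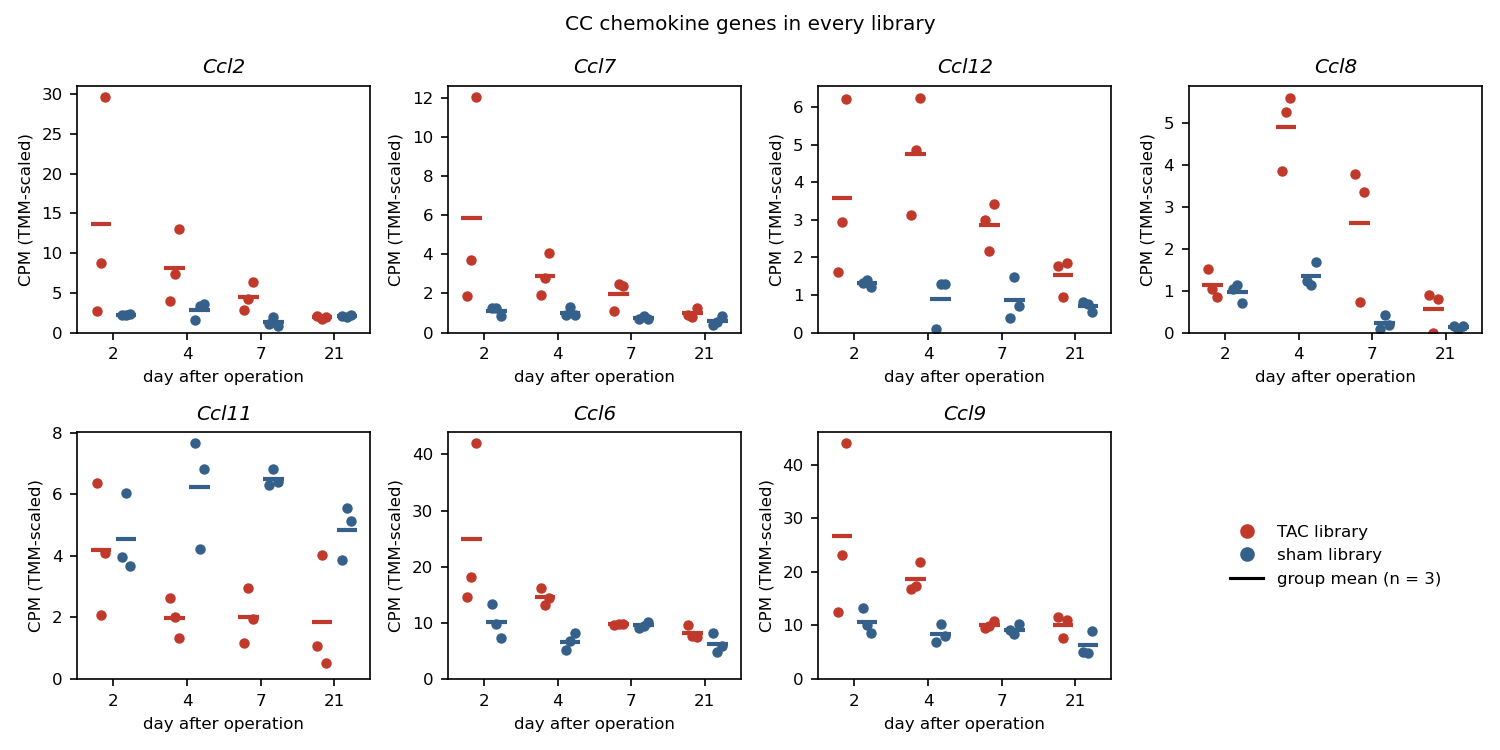
Level of each CC chemokine gene in every library (CPM after TMM scaling, linear axes from 0) by day, with TAC libraries in red, sham libraries in blue and a bar at each mean of 3. Ccl11 is the panel in which TAC libraries lie below sham, with TAC means of 2.00 and 2.03 CPM against sham means of 6.23 and 6.51 CPM at days 4 and 7.

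The overlap of the 3 TAC and 3 sham libraries was counted for each gene. All 3 TAC libraries lay above all 3 sham libraries for 4 members at day 2, 6 at day 4, 4 at day 7 and 1 at day 21. They lay below sham for Ccl11 at days 4 and 7, and for no member at days 2 and 21. Of all tested genes, 22.4%, 41.1%, 39.9% and 22.4% did not overlap in either direction at days 2, 4, 7 and 21.

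**Figure D2:**
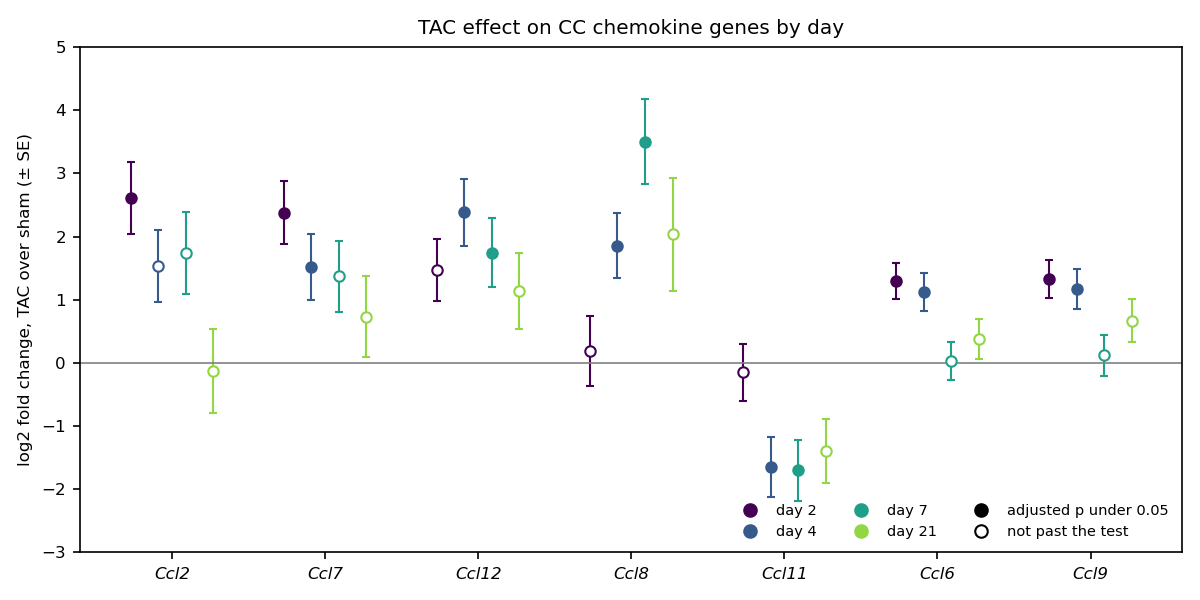
Log2 fold change of TAC over sham ± SE for each gene at days 2, 4, 7 and 21 (3 libraries per group), filled where the adjusted p is under 0.05. Ccl2 and Ccl7 stand highest at day 2 (2.61 and 2.38), Ccl12 at day 4 (2.39) and Ccl8 at day 7 (3.50), while Ccl11 lies below 0 at days 4, 7 and 21 (-1.65, -1.70 and -1.39).

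Ccl2, the ligand of Ccr2 that draws monocytes out of marrow and blood, was highest at day 2. Its level was 2.73, 8.73 and 29.6 CPM in TAC hearts and 2.24, 2.24 and 2.29 CPM in sham hearts. The TAC libraries spread widely while the sham libraries were nearly level, and TAC replicate 1 lay close to sham. The effect was 2.61 ± 0.57 (adjusted p = 0.0149), and 3.08 (adjusted p = 0.000284) without that replicate. At day 4 the TAC libraries held 4.00, 7.37 and 13.0 CPM and the sham libraries 1.58, 3.33 and 3.53 CPM, an effect of 1.53 ± 0.57 that missed the test (adjusted p = 0.0543). At day 7 the levels were 2.81, 4.17 and 6.39 CPM in TAC and 1.11, 1.99 and 0.887 CPM in sham hearts (1.74 ± 0.65, adjusted p = 0.0561). Both days passed with DESeq2 (adjusted p = 0.0289 and 0.0163), with the 6 libraries of the day alone (0.0270 and 0.0207) and with the replicate block (0.0262 and 0.0299), and neither with limma-voom (0.167 and 0.252). Most settings left Ccl2 short of the test, which it passed in 5 of 17 alternatives at day 4 and in 4 of 17 at day 7. The groups did not overlap at any of these days. By day 21 they did, at 2.05, 1.66 and 1.99 CPM in TAC and 2.04, 1.97 and 2.22 CPM in sham hearts (-0.13 ± 0.67, adjusted p = 0.944). In TAC hearts the means fell in order of day, with overlap between neighbouring days except days 7 and 21.

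Ccl7, which shares Ccr2 with Ccl2 and lies next to it, also had its highest TAC mean at day 2 and its lowest at day 21. At day 2 it held 1.85, 3.70 and 12.0 CPM in TAC hearts and 1.25, 1.27 and 0.860 CPM in sham hearts, and rose by 2.38 ± 0.49 (adjusted p = 0.0118). TAC replicate 3 was again the highest and replicate 1 the lowest of the TAC libraries. At day 4 Ccl7 held 1.90, 2.78 and 4.06 CPM in TAC and 0.879, 1.30 and 0.883 CPM in sham hearts (1.51 ± 0.52, adjusted p = 0.0398). At day 7 it held 1.10, 2.48 and 2.40 CPM in TAC and 0.710, 0.864 and 0.710 CPM in sham hearts (1.37 ± 0.57, adjusted p = 0.0829). At day 21 the groups overlapped, at 0.891, 0.785 and 1.25 CPM in TAC and 0.364, 0.564 and 0.841 CPM in sham hearts (0.73 ± 0.64, adjusted p = 0.581).

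The day 2 calls moved with single libraries, as did the number of calls over all genes, which was 633 with all libraries. Without TAC replicate 3, the log2 fold changes were 1.37 for Ccl2 (adjusted p = 0.248), 1.31 for Ccl7 (0.188), 0.69 for Ccl6 (0.201) and 0.76 for Ccl9 (0.248), and 12 genes in all passed. With sham replicate 2 or sham replicate 3 left out, no member and 12 and 96 of all genes passed at day 2, while the effects stayed close to those with all libraries. They were 2.60 and 2.62 for Ccl2 (adjusted p = 0.0751 and 0.0632), 2.47 and 2.22 for Ccl7, 1.28 and 1.11 for Ccl6 and 1.30 and 1.20 for Ccl9. Without sham replicate 1 the calls of Ccl6 and Ccl9 remained, and Ccl2 (2.61, adjusted p = 0.0656) and Ccl7 (2.45, adjusted p = 0.0532) missed the threshold. Without TAC replicate 1, the library that stood apart, 5 members passed, Ccl12 now among them, and so did 1835 of all genes. Without the 4 libraries over 30 CPM of Myl7, which leaves 1 sham library at day 2, no member passed at day 2 and Ccl8 alone at day 7 (3.16, adjusted p = 0.0213). The day 4 call of Ccl7 also ended without any one of sham replicates 1, 2 or 3, at effects of 1.42, 1.73 and 1.42 (adjusted p = 0.109, 0.0634 and 0.113), or TAC replicates 2 or 3, at 1.55 and 1.19 (adjusted p = 0.0504 and 0.195).

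Ccl12, a monocyte attractant of the mouse that acts on Ccr2, was the member whose TAC and sham libraries were apart at all 4 days. At day 2 it held 1.61, 2.95 and 6.23 CPM in TAC hearts and 1.32, 1.39 and 1.22 CPM in sham hearts, an effect of 1.47 ± 0.50 that missed the test (adjusted p = 0.0975), while it was 1.80 without TAC replicate 1 (adjusted p = 0.0175) and 0.81 without TAC replicate 3 (adjusted p = 0.635). It peaked at day 4, at 3.12, 4.87 and 6.25 CPM in TAC and 0.0879, 1.30 and 1.28 CPM in sham hearts (2.39 ± 0.53, adjusted p = 0.00339). The lowest of these sham values was 1 read, and the call held without that library and in each of the 17 settings tried. At day 7 the levels were 2.99, 2.16 and 3.42 CPM in TAC and 0.395, 1.47 and 0.710 CPM in sham hearts (1.74 ± 0.55, adjusted p = 0.0279). That call ended without sham replicates 1 or 3 (1.39 and 1.64, adjusted p = 0.118 and 0.0952) or TAC replicates 1 or 3 (1.72 and 1.60, adjusted p = 0.0802 and 0.0817). At day 21 it held 1.78, 0.959 and 1.84 CPM in TAC and 0.801, 0.752 and 0.535 CPM in sham hearts (1.13 ± 0.60, adjusted p = 0.337). TAC levels of days 7 and 21 did not overlap, and those of days 2, 4 and 7 did.

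Ccl8, a further monocyte chemoattractant protein that in the mouse also acts on Ccr8, rose at days 4 and 7. At day 2 it did not pass the test, at 1.53, 1.04 and 0.842 CPM in TAC and 1.05, 1.15 and 0.717 CPM in sham hearts (0.19 ± 0.56, adjusted p = 0.888). At day 4 it held 3.86, 5.28 and 5.61 CPM in TAC and 1.23, 1.14 and 1.69 CPM in sham hearts (1.86 ± 0.51, adjusted p = 0.0121), and without TAC replicate 3 the effect was 1.75 (adjusted p = 0.0538). At day 7 the TAC libraries held 3.78, 0.721 and 3.35 CPM, from 62, 9 and 53 reads, and the sham libraries 0.0789, 0.432 and 0.177 CPM, from 1, 5 and 2 reads. This was the largest effect of any member at any day, 3.50 ± 0.68 (adjusted p = 0.00157), and it held in all 16 settings that gave a value, between 2.27 and 4.31. The size of this effect rests on these few sham reads, and the prior count of the fit was not varied. At day 21 TAC hearts had 10, 0 and 11 reads and sham hearts 2, 1 and 2 (2.04 ± 0.89, adjusted p = 0.241), so that the groups overlapped through the TAC library at 0.

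Sham levels of Ccl8 were low at days 7 and 21. The sham mean of Ccl8 was 0.973 ± 0.227 CPM at day 2 and 1.35 ± 0.29 CPM at day 4, against 0.230 ± 0.182 CPM at day 7 and 0.131 ± 0.032 CPM at day 21 (SD, n = 3). Across the 4 sham groups no member passed the test of a difference by day, which 0.680% of all genes passed. Ccl8 came nearest, with an unadjusted p = 0.000786 (adjusted p = 0.0883) from edgeR's test. It was the only member with an unadjusted p under 0.05 there. Sham libraries of Ccl8 at days 2 and 4 were all above those at days 7 and 21.

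Ccl11, the eotaxin, went the other way. At day 2 the groups overlapped, at 6.35, 2.08 and 4.10 CPM in TAC and 3.95, 6.05 and 3.66 CPM in sham hearts (-0.15 ± 0.45, adjusted p = 0.890). At day 4 it fell to 2.64, 2.02 and 1.34 CPM in TAC hearts, against 7.65, 4.22 and 6.82 CPM in sham hearts (-1.65 ± 0.48, adjusted p = 0.0161). The highest TAC library lay below the lowest sham library. At day 7 it held 1.16, 2.97 and 1.96 CPM in TAC and 6.31, 6.83 and 6.39 CPM in sham hearts (-1.70 ± 0.48, adjusted p = 0.0162). At day 21 TAC replicate 2 stood at 4.01 CPM, inside the sham range, while the other TAC libraries held 1.07 and 0.516 CPM and the sham libraries 3.86, 5.55 and 5.12 CPM (-1.39 ± 0.50, adjusted p = 0.156). Without that library the day 21 effect was -2.63 (adjusted p = 0.00987).

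The fall of Ccl11 kept its direction at days 4, 7 and 21 in every setting tried, with log2 fold changes between -2.63 and -0.92, but not always its call. At day 4 it missed the test without sham replicate 1 (-1.48, adjusted p = 0.0572) or TAC replicate 3 (-1.41, adjusted p = 0.0954). At day 7 it missed without TAC replicate 1 (-1.41, adjusted p = 0.0946), a library with 60.6 CPM of Myl7, or TAC replicate 3 (-1.69, adjusted p = 0.0533). Eosinophil markers gave no parallel reading, since 0 of 8 passed the filter on low counts. Their summed level was 0.160 to 0.730 CPM in TAC libraries and 0.0765 to 0.703 CPM in sham libraries, and Epx, Ear1 and Ear6 had no read in any library. Ccr3, the eotaxin receptor, had 11 reads over all 24 libraries.

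Ccl6 and Ccl9, the ligands of Ccr1, rose at days 2 and 4. At day 2 Ccl6 held 14.6, 18.1 and 42.0 CPM in TAC and 13.4, 9.80 and 7.24 CPM in sham hearts (1.30 ± 0.28, adjusted p = 0.0149). Ccl9 held 12.5, 23.2 and 44.1 CPM in TAC and 13.2, 10.2 and 8.53 CPM in sham hearts (1.33 ± 0.30, adjusted p = 0.0178), with TAC replicate 1 inside the sham range. For both genes TAC replicate 3 was the highest library, as for Ccl2 and Ccl7. At day 4 Ccl6 held 16.3, 13.2 and 14.4 CPM in TAC and 5.10, 6.74 and 8.19 CPM in sham hearts (1.13 ± 0.30, adjusted p = 0.0105). Ccl9 held 16.8, 17.5 and 21.9 CPM in TAC and 6.86, 10.2 and 7.95 CPM in sham hearts (1.17 ± 0.32, adjusted p = 0.0111). At this day the TAC replicates lay close together and clear of sham. Without sham replicate 1 the day 4 effects were 0.96 for Ccl6 (adjusted p = 0.0517) and 1.04 for Ccl9 (adjusted p = 0.0506), and without TAC replicate 3 that of Ccl9 was 1.04 (adjusted p = 0.0627).

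By day 7 the levels of this pair in TAC hearts were close to sham. Ccl6 held 9.58, 9.86 and 9.87 CPM in TAC and 9.15, 9.42 and 10.2 CPM in sham hearts (0.03 ± 0.30, adjusted p = 0.958). Ccl9 held 9.52, 9.86 and 10.8 CPM in TAC and 9.08, 8.47 and 10.2 CPM in sham hearts (0.12 ± 0.32, adjusted p = 0.815). At these levels every TAC value of Ccl6 lay within 1 CPM of the sham mean of 9.59 CPM. At day 21 Ccl6 held 9.71, 7.59 and 7.44 CPM in TAC and 8.15, 4.89 and 5.89 CPM in sham hearts (0.37 ± 0.31, adjusted p = 0.568). Ccl9 held 11.6, 7.67 and 11.0 CPM in TAC and 5.02, 4.89 and 9.02 CPM in sham hearts (0.67 ± 0.33, adjusted p = 0.308). The groups of both genes overlapped through the highest sham library.

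**Figure D3:**
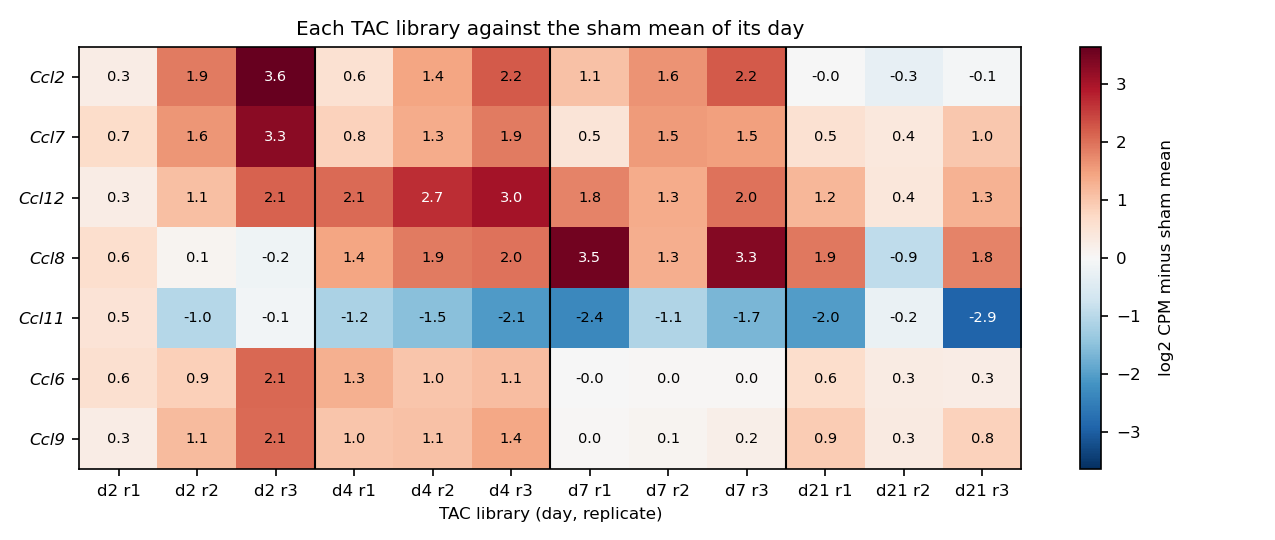
Log2 CPM of each of the 12 TAC libraries minus the mean of the 3 sham libraries of its day, by gene (rows) and library (columns, d for day and r for replicate), red above and blue below sham. TAC day 2 replicate 3 is the strongest column for Ccl2, Ccl7, Ccl6 and Ccl9, and all 3 columns of Ccl8 are red at days 4 and 7.

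Differences between days were tested directly and none of the 7 genes passed. The effect at day 4 minus day 2 was called in 0% of all genes, day 7 minus day 4 in 0.0507%, day 21 minus day 7 in 0.0651%, day 21 minus day 2 in 0.0145%, and any difference between days in 0.369%. At an unadjusted p under 0.05, Ccl2, Ccl6 and Ccl8 passed the test of any difference in edgeR, as they did not after adjustment (adjusted p = 0.360, 0.285 and 0.259), and limma-voom called none. The clearest single contrast was Ccl2 at day 21 minus day 2, -2.74 ± 0.88 (unadjusted p = 0.00506, adjusted p = 0.328). It was -3.20 without TAC day 2 replicate 1 (adjusted p = 0.0438) and -1.50 without TAC day 2 replicate 3 (adjusted p = 0.722). Ccl6 and Ccl9 at day 7 minus day 4 had -1.10 ± 0.42 and -1.05 ± 0.45 (adjusted p = 0.528 and 0.610). That a gene passed at one day and not at another is thus not shown to be a difference between those days.

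Levels of different genes can be set side by side only per length, for which the authors' RPKM values (reads per kilobase and per M reads) were used. In sham hearts at day 7, Ccl6 had the largest share of the summed RPKM of the 7 genes with 30.1%, then Ccl11 with 28.3%, and Ccl8 had 3.07%. In TAC hearts at day 7, Ccl12 had 21.6%, Ccl8 20.7%, Ccl6 18.3% and Ccl11 5.37%. At day 4 the share of Ccl11 was 3.27% in TAC and 23.6% in sham hearts. Ccl2 had 22.8% in TAC and 12.7% in sham hearts at day 2, and 13.0% in TAC and 17.3% in sham hearts at day 21. The summed RPKM of the 7 genes was 70.9 ± 48.9 in TAC and 25.6 ± 4.0 in sham hearts at day 2, and 62.3 ± 16.4 and 25.0 ± 3.2 at day 4. It was 39.3 ± 6.4 in TAC and 22.2 ± 3.8 in sham hearts at day 7, and 21.1 ± 2.6 in TAC and 17.3 ± 0.6 in sham hearts at day 21 (SD, n = 3). The lowest TAC library exceeded the highest sham library at each of the 4 days, by the least at day 21, with 18.8 against 17.8 RPKM. Summed as CPM from the counts, the 7 genes were apart at days 2, 4 and 7. At day 21 these sums overlapped, at 22.7 to 28 CPM in TAC and 18.7 to 23.8 CPM in sham libraries.

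**Figure D4:**
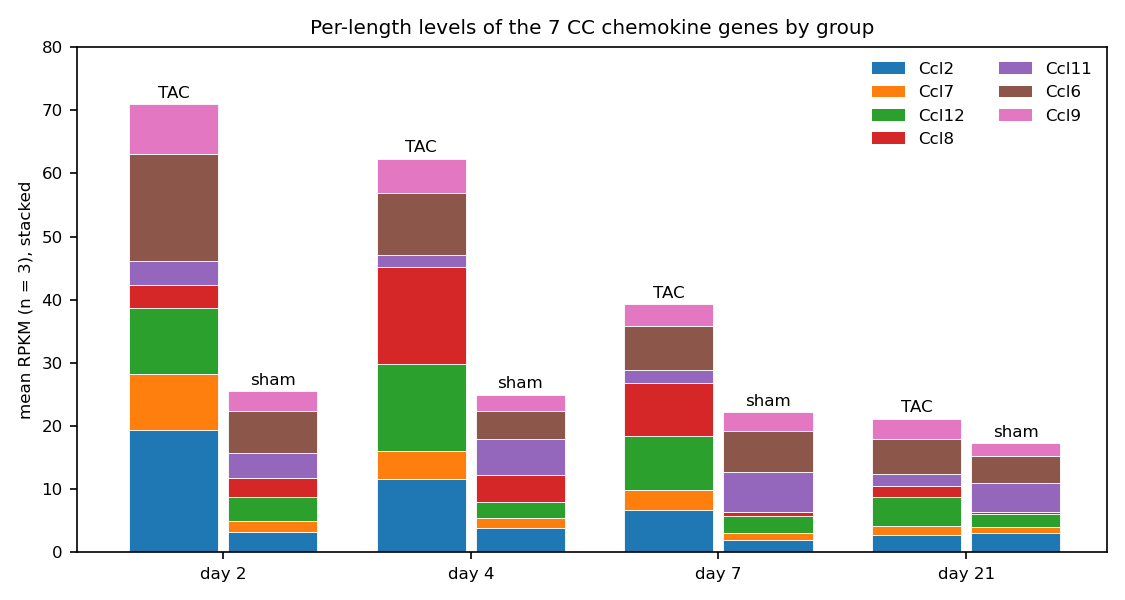
Mean RPKM of the 7 genes, stacked from Ccl2 at the bottom to Ccl9 at the top, in TAC and sham hearts at each day (mean of 3 libraries, linear axis from 0). The summed bars are 70.9, 62.3, 39.3 and 21.1 RPKM in TAC hearts and 25.6, 25.0, 22.2 and 17.3 RPKM in sham hearts, and the Ccl11 segment is thin in TAC hearts from day 4 on.

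Of 10 CC receptor genes described here, Ccr1 and Ccr2 passed the filter, and these are the receptors of most of the ligands above. Ccr2, the receptor of Ccl2, Ccl7 and Ccl12, rose at days 2, 4 and 7. At day 2 it averaged 14.7 ± 13.3 CPM in TAC and 3.29 ± 0.60 CPM in sham hearts, and the groups overlapped. It averaged 22.7 ± 6.9 CPM in TAC and 2.91 ± 1.40 CPM in sham hearts at day 4 (SD, n = 3), with effects of 2.18 ± 0.61 at day 2 (adjusted p = 0.0430), 2.95 ± 0.63 at day 4 (adjusted p = 0.00269), 2.05 ± 0.65 at day 7 (adjusted p = 0.0293) and 0.76 ± 0.66 at day 21 (adjusted p = 0.582). Ccr1, the receptor of Ccl6, Ccl9 and Ccl7, rose at day 4 (1.74 ± 0.54, adjusted p = 0.0235) and missed at day 2 (1.71 ± 0.50, adjusted p = 0.0547). Neither passed at day 21. The other 8 receptors had 2 to 140 reads in all 24 libraries together, with Ccr8 lowest.

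Atypical receptors bind chemokines without the usual G protein signal, and 5 of 6 on the list were tested. Ackr4, a scavenger of Ccl19, Ccl21 and Ccl25, rose at days 4, 7 and 21 (1.16 ± 0.28, 1.33 ± 0.27 and 1.30 ± 0.29, adjusted p = 0.00611, 0.00205 and 0.0358). At day 21 it held 9.94 ± 3.21 CPM in TAC and 4.03 ± 0.61 CPM in sham hearts (SD, n = 3) with no overlap. Ackr2, the scavenger of inflammatory CC chemokines such as Ccl2, rose at day 7 (0.86 ± 0.31, adjusted p = 0.0481). Pitpnm3, known in human cells as a receptor of CCL18, fell at days 4 and 7 (-0.76 ± 0.23 and -0.82 ± 0.23, adjusted p = 0.0208 and 0.0174). Ackr3 and Ccrl2 passed at no day.

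Of the 17 other CC ligand genes, 5 passed the filter and 7 had no read in any library. Ccl5, a T cell and monocyte attractant, rose at day 7, at 1.78 ± 0.50 CPM in TAC and 0.346 ± 0.263 CPM in sham hearts (SD, n = 3; 2.37 ± 0.61, adjusted p = 0.0102). Ccl3, a ligand of Ccr1, rose at day 4, at 0.637 ± 0.190 CPM in TAC and 0.0812 ± 0.1406 CPM in sham hearts (2.83 ± 0.95, adjusted p = 0.0349). These are few reads, and the RefSeq model of Ccl4 reaches into Ccl3, so that their reads may be mixed. Ccl24, the other eotaxin tested, had negative effects at all 4 days, of which the largest was -1.49 ± 0.67 at day 7 (adjusted p = 0.110). Neither Ccl25 nor Ccl27a passed at any day, and Ccl27a has the near-identical copy Ccl27b. The median log2 fold change of these 5 ligands was -0.0029, -0.10, 0.03 and 0.18 at days 2, 4, 7 and 21.

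**Figure D5:**
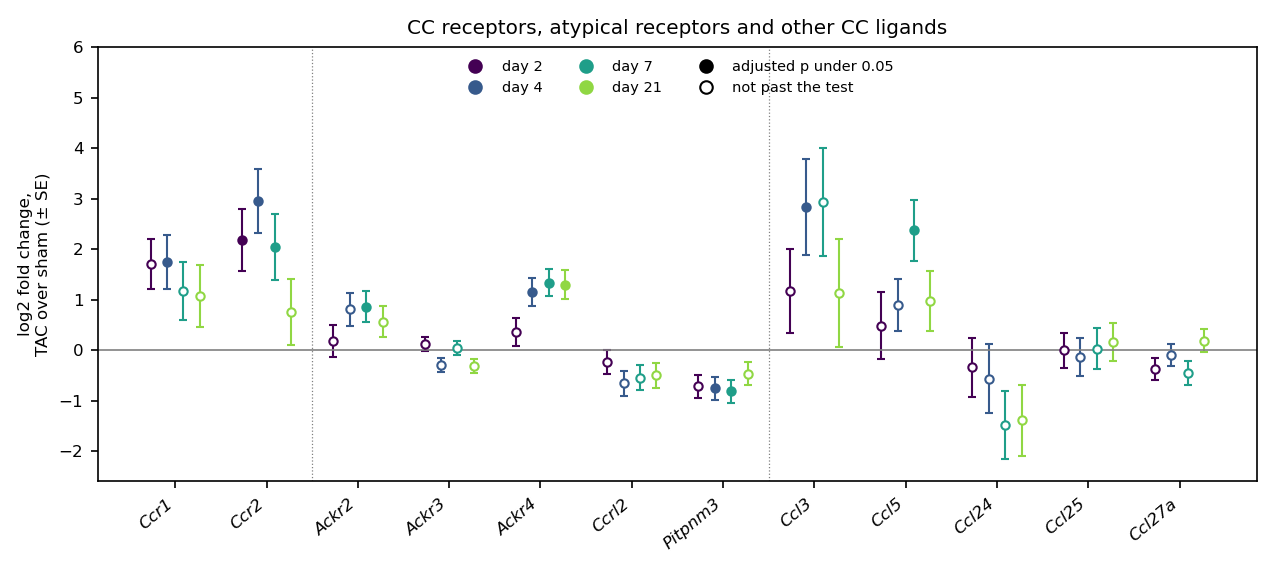
Log2 fold change of TAC over sham ± SE at days 2, 4, 7 and 21 for 2 CC receptors, 5 atypical receptors and 5 other CC ligands that passed the filter (3 libraries per group), filled where the adjusted p is under 0.05. Both CC receptors shown are filled at day 4, and Ackr4 is the one gene filled at day 21.

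The NF-kappaB pathway is a known inducer of Ccl2 and its relatives, and 20 of 21 genes on its list were tested. None passed at day 2, 6 rose and 1 fell at day 4, 5 rose and 1 fell at day 7, and none passed at day 21. Over all genes 14.4% rose and 10.1% fell at day 4, and 13.1% rose and 10.0% fell at day 7. Whether the counts of this list of 20 tested genes exceeded these shares was not tested. The list had medians of 0.23, 0.21, 0.34 and 0.15 beside medians of all genes near 0. The rises at day 4 included the TNF receptor Tnfrsf1b (1.07 ± 0.25, adjusted p = 0.00436), the pattern receptors Tlr2 (1.36 ± 0.33, adjusted p = 0.00613) and Tlr4 (0.60 ± 0.18, adjusted p = 0.0210) and the nuclear regulator Nfkbiz (1.23 ± 0.26, adjusted p = 0.00231). Tnfrsf1a rose at days 4 and 7 (0.57 ± 0.15 and 0.45 ± 0.15, adjusted p = 0.00871 and 0.0335), and the subunit gene Relb at day 7 (0.75 ± 0.23, adjusted p = 0.0264). The inhibitor gene Nfkbib was the one that fell, at days 4 and 7 (-0.54 ± 0.12 and -0.54 ± 0.12, adjusted p = 0.00268 and 0.00341).

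The type 2 cytokines Il4 and Il13 are known inducers of eotaxins. Of 10 genes of that arm 6 were tested, and 1, 3, 1 and 0 of them rose at days 2, 4, 7 and 21 while none fell. Over all genes 3.73%, 14.4%, 13.1% and 0.622% rose and 0.854%, 10.1%, 10.0% and 0.470% fell at these days. The day 7 count of 1 in 6 was near the share of all genes that rose. Il4ra, the shared receptor chain of Il4 and Il13, rose at days 2 and 4 (1.27 ± 0.29 and 1.28 ± 0.29, adjusted p = 0.0177 and 0.00397). Il33, an alarmin, rose at day 4, at 17.2 ± 10.2 CPM in TAC and 3.88 ± 1.83 CPM in sham hearts (SD, n = 3; 2.15 ± 0.58, adjusted p = 0.0114). Il13ra1 rose at days 4 and 7 (0.62 ± 0.13 and 0.47 ± 0.13, adjusted p = 0.00263 and 0.0159). Il13 had no read in any library, and Il4 and Il5 had 3 and 31 reads in all.

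Markers of several cell types were called in the same comparisons. Of all tested genes, 3.73%, 14.4%, 13.1% and 0.622% rose at days 2, 4, 7 and 21. The shares that fell were 0.854%, 10.1%, 10.0% and 0.470%. Whether a list exceeded these shares was not tested. Of 21 macrophage and monocyte markers, 6, 16, 14 and 0 rose at days 2, 4, 7 and 21 and none fell. Their summed level was 470 to 800 CPM in TAC and 347 to 487 CPM in sham libraries at day 2, and 814 to 1130 CPM and 366 to 427 CPM at day 4. It was 471 to 751 CPM in TAC and 375 to 393 CPM in sham libraries at day 7, and 352 to 491 CPM and 308 to 329 CPM at day 21. The TAC and sham sums overlapped at day 2 alone. Of 11 fibroblast markers, 1, 7, 7 and 0 rose at these days, with sums at day 4 of 4390 to 8750 CPM in TAC and 1430 to 1730 CPM in sham libraries. Of 8 endothelial markers none rose and 3 fell at days 2 and 4, and 2 rose and 1 fell at day 7, with sums of 976 to 1050 CPM in TAC and 1230 to 1310 CPM in sham libraries at day 2. Of 9 cardiomyocyte markers none rose at any day, and 4 and 5 fell at days 4 and 7, with sums at day 7 of 56600 to 92900 CPM in TAC and 104000 to 108000 CPM in sham libraries. The part of these cells in the chemokine results was not tested.

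Other leukocyte lists had few calls. Of 9 neutrophil markers 4 were tested and none passed at any day, with Elane at 0 in every library and sums of 6.27 to 25.4 CPM in TAC and 5.73 to 10.4 CPM in sham libraries at day 2. Their sums were apart at day 4 alone, at 13 to 13.3 CPM in TAC and 9.09 to 10.8 CPM in sham libraries. Of 13 lymphocyte markers 4 were tested and none passed. Lymphocyte sums overlapped at days 2 and 4. They were 5.69 to 8.79 CPM in TAC and 3.72 to 4.49 CPM in sham libraries at day 7. At day 21 they were 5.88 to 7.15 CPM in TAC and 2.75 to 5.45 CPM in sham libraries. Of 8 mast cell markers 6 were tested, and at day 7, where 13.1% of all genes rose, Kit and Hdc rose (0.83 and 1.32, adjusted p = 0.00260 and 0.0305). The protease genes of that list did not pass. The adipocyte list was low except in 1 sham day 4 library with a sum of 87.3 CPM.

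Profiles over the 24 libraries were compared by the root-mean-square difference of log2 CPM, each gene centred on its own mean, which is a description of likeness and no test. The nearest gene to Ccl2 was Ccl7 (0.431), followed by the heme-degrading enzyme gene Hmox1 (0.534). The nearest to Ccl6 and to Ccl9 was Msr1, a macrophage scavenger receptor (0.294 and 0.283), and each was the other's second neighbour (0.296). Ccl12 was nearest to Ch25h, a cholesterol hydroxylase of myeloid cells (0.498). Ccl8 was the member farthest from its nearest gene, the interferon-induced chemokine gene Cxcl10 (0.811). Ccl8 also varied most among the members, with an SD of 1.50, and this difference grows with a gene's own spread. Ccl11 was nearest to the carboxylesterase gene Ces1d (0.429) and farthest among members from Ccl8 (2.06). The libraries share operation and day, so these values hold the group differences given above.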

How the data were processed

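RNA of mouse left ventricle was sequenced in 24 libraries, prepared with a NuGEN Ovation kit, per the labels' protocols. The authors deposited raw read counts per gene symbol and a table of RPKM made by the authors. The submitters' processing notes name TopHat, DESeq and hg19; for the mouse build, annotation and counter they are silent (not given in the sources used here). Of zero counts, 10.8% had an RPKM above 0, so the RPKM table came from another counting and served for levels between genes and as an alternative.

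From the counts, edgeR 4.0.16 in R 4.3.3 was run on all 24 libraries: filterByExpr on the 8 groups, TMM, 8 group means (16 residual degrees of freedom), glmQLFit and glmQLFTest, two-sided, with Benjamini-Hochberg adjustment over 13816 genes and a threshold of 0.05. The SE is the log2 fold change divided by the square root of F. Profile likeness used log2 CPM with a prior count of 2 and genes whose average log2 CPM reached 1. Alternatives were RLE scaling, no or a stricter filter, DESeq2 1.42.0, limma 3.58.1 (voom, or log2 RPKM plus 0.1 or 1), the 6 libraries of a day alone, a replicate block, Myl7 as a covariate or as a reason to leave libraries out, and each library left out. The members and lists were chosen with earlier results of these data known. Named genes were all 7 members, every tested CC ligand and receptor but a gene not reported here, up to 6 called genes of the pathway lists a day and the 3 most alike genes. Tests were tried on simulated data first. Replicate numbers did not pair the libraries. Sequences are from RefSeq, and 4 of the 7 members matched.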

Additional observations from a re-analysis of the deposited data

How the results depend on the processing

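Over the mean of the 4 days, 7 members passed in every alternative that gave a value, a comparison that called 45.7% of all genes. The mean rests on all 24 libraries, so leaving 1 out weighs less there than at a single day. The setting with the 6 libraries of a day alone gave no value for the mean. Its steadiness is thus not comparable with that of single days, where the number past the test changed with the setting. At day 2, 4 members passed, but 2 with limma-voom, 1 with RPKM plus 0.1, 1 with RPKM plus 1, 0 with the 6 libraries of the day alone, 0 with the 4 libraries over 30 CPM of Myl7 left out (which leaves 1 sham library, assumed to vary like the rest) and 0 to 5 with a library left out. At day 4, 6 passed, and 2 to 7 with a library left out (2 without sham replicate 1 or TAC replicate 3). At day 7, 3 passed, but 1 without the Myl7 libraries and 1 to 3 with a library left out (1 without TAC replicate 1 or 3). At day 21 none passed, and 1 (Ccl11) did with Myl7 as covariate, and 0 to 1 with a library left out. The same holds for sham hearts over days, where 1 passed with Myl7 as covariate and 0 to 1 with a library left out.

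Over all genes, 633 passed at day 2, against 292 with limma-voom, 231 and 157 with RPKM plus 0.1 and plus 1, 0 with the 6 libraries alone, 1788 with Myl7 as covariate, 0 without the Myl7 libraries and 12 to 1835 with a library left out (1835 without TAC replicate 1, 12 without TAC replicate 3 or sham replicate 2). At day 21, 151 passed, against 426 with DESeq2, 87 with limma-voom, 92 with RPKM plus 1, 30 with the 6 libraries alone, 1059 with Myl7 as covariate, 3 without the Myl7 libraries and 7 to 575 with a library left out. At day 4, 3394 passed and 1402 to 3910 with a library left out. At day 7, 3201 passed, 893 without the Myl7 libraries and 1270 to 4133 with a library left out. The cause was not tested.

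Over these alternatives, values of single members kept their direction and whether they were called 1232 times. They lost the call 54 times, gained it 15 times and turned sign 27 times. The 1232 include effects not called in the main fit, differences between days and the means of the 4 days. All 54 losses were at single days. Of 17 alternatives, the day 2 calls held in 8 each for Ccl2 and Ccl7, 10 for Ccl9 and 12 for Ccl6. The day 4 calls held in 9 for Ccl7 and in 15 to 17 for the others called. At day 7 Ccl12 held in 11 of 17, Ccl11 in 14 of 17 and Ccl8 in 16 of 16. Among the losses were Ccl2 and Ccl7 at day 2 with limma-voom (adjusted p = 0.122 and 0.0689), Ccl7 at day 4 with limma-voom (0.129), Ccl8 at day 4 with RPKM plus 0.1 (0.137) and Ccl12 at day 7 with RPKM plus 0.1 (0.0552). Besides those of Ccl2, the gains were Ccl12 at day 2 (0.0357) and Ccl11 at day 21 (0.0422) with Myl7 as covariate, Ccl7 at day 7 with the 6 libraries alone (0.0436), and Ccl12 at day 2 and Ccl11 at day 21 with a TAC library left out. Signs turned only for effects that were not called. Without the Myl7 libraries these were Ccl11 at day 2 (0.060), Ccl11 and Ccl7 at day 7 minus day 4 (0.23 and 0.15) and Ccl6 and Ccl9 at day 4 minus day 2 (0.22 and 0.15). Ccl11 at day 21 minus day 7 was -0.059 with limma-voom, -0.051 with RPKM plus 0.1 and -0.074 with Myl7 as covariate. With a library left out, the ranges that crossed 0 were -0.56 to 0.18 for Ccl11, -0.058 to 0.37 for Ccl8 (both day 2) and -0.0039 to 0.073 for Ccl6 at day 7. For day 4 minus day 2 they were -1.61 to 0.17 for Ccl2, -0.44 to 0.44 for Ccl6, -1.27 to 0.21 for Ccl7 and -0.50 to 0.41 for Ccl9. For day 7 minus day 4 they were -0.41 to 0.23 for Ccl11, -0.16 to 0.74 for Ccl2 and -0.37 to 0.18 for Ccl7. They were -0.92 to 0.78 for Ccl11 at day 21 minus day 7 and -0.66 to 0.32 for Ccl12 at day 21 minus day 2.

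Same-numbered libraries did not deviate together (correlations of -0.151 to 0.141, and 6 of 24 libraries correlated best with their own number). With the replicate block, 4, 7, 4 and 0 members and 657, 3498, 3223 and 152 genes passed at days 2, 4, 7 and 21. Ccl2 then passed at days 4 and 7. Depth limits Ccl8 most, since its sham libraries at days 7 and 21 held 1 to 5 reads.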
